A study of Homo sapiens with 18 samples.

Results

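Open chromatin in BE2C cells carrying the second hairpin against AHR was compared with that in BE2C cells carrying the empty vector. The comparison used 6 of the 18 libraries of the study, chosen by their titles: 3 of BE2C shAhR-2 and 3 of BE2C pLKO. BE2C is an established human neuroblastoma line, known as a clonal subline, so the result describes a single clone. Both groups were grown in the same medium and transduced with a lentivirus, which held no hairpin in the pLKO group and a short hairpin RNA against AHR in the shAhR-2 group. The time between transduction and harvest and any selection of transduced cells are not given in the labels. Each library was made by ATAC-seq, which cuts and tags accessible DNA with a transposase, from 50K cells with a reaction of 30 min and 10 PCR cycles. The labels call the replicates triplicates of collected cells without naming separate cultures, so the p-values speak only of variation among these libraries, part of which may be technical.

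AhR is a receptor of the bHLH-PAS class that is activated by small molecules such as dioxins and tryptophan metabolites. With a ligand bound, it moves to the nucleus, pairs with ARNT and binds short DNA elements near target genes such as CYP1A1. Neuroblastoma arises from the sympathetic nervous lineage, and the series title places this study in tumours with amplified MYCN, a transcription factor gene on the short arm of chromosome 2. An ATAC-seq peak marks a stretch of DNA where nucleosomes are sparse, which is typical of promoters and enhancers. The positions below are on hg19. Genes, gene features and DNA sequences at these positions, the marker genes of the cell line and the level of AHR were not analysed here.

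The values were lists of peaks called in each library separately. On chromosomes 1 to 22 and X the pLKO lists held 34343, 36525 and 44397 peaks and the shAhR-2 lists 75798, 77607 and 81637, in order of replicate number. No pLKO list reached the length of any shAhR-2 list. With the hairpin the lists were 2.05 times as long (geometric ratio, exact permutation test, two-sided p = 0.1, n = 3 each, the smallest p that 20 arrangements allow). The background read density solved from the peak values, a stand-in for depth, was between 1.5 and 1.86 overlapping reads in the pLKO libraries and between 3.40 and 4.42 in the shAhR-2 libraries. The mitochondrial pileup over this background lay between 16151 and 17563 in pLKO and between 4849 and 5880 in shAhR-2. Depth and mitochondrial content therefore moved with the hairpin, and their part in the results below was not tested beyond the values given.

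To compare lists of equal length, only the 34343 peaks with the highest −log10 p were kept from each, the number in the shortest list. The 6 lists merged into 50523 regions. All 6 lists had a peak in 21954 of them. A region was counted as gained when all 3 shAhR-2 lists and no pLKO list had a peak in it, and as lost in the reverse case. There were 2092 gained regions (4.14% of all regions) and 1447 lost regions (2.86%). Another 1740 regions also had a peak in 3 lists, but in 1 or 2 of each group, and serve below as a comparison set. An exact test of presence in 3 libraries against 3 cannot give a p below 0.1 for a single region, so these counts are descriptions. Libraries of shAhR-2 shared more of their covered bases with each other (mean Jaccard index 0.737) than pLKO libraries did (0.605), and the mean between the groups was 0.503.

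Counting depended on how presence was defined. Gained regions numbered 15182 and lost regions 181 in the full lists, and 6306 and 805 when presence required a peak over 50% or more of the region's length. Without pLKO replicate 3 the gained count was 3273, and without pLKO replicate 1 the lost count was 2258.

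The full lists were searched for weaker peaks, but they differed in length. The pLKO lists held 34343, 36525 and 44397 peaks and the shAhR-2 lists 75798, 77607 and 81637. The full list of pLKO replicate 1 was its shortened list, so no gained region could have a weaker peak in all 3. The counts for gained and lost regions are therefore not comparable as such. Of the 2092 gained regions, 1473 had no peak in any full pLKO list, 575 had a weaker one in 1 list, 44 in 2 lists and 0 in all 3. Of the 1447 lost regions, 150 had no peak in any full shAhR-2 list and 1008 had a weaker one in all 3. A lost region was thus mostly one that had slipped down the shAhR-2 lists. The weaker peaks in lost regions had median ranks of 45903, 45870 and 46984 in the 3 shAhR-2 libraries, below the 34343 peaks kept.

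The strength needed to enter a shortened list differed between the groups. The weakest peak kept had a −log10 p of 3.53, 4.68 and 8.01 in the pLKO libraries and 17, 16.1 and 16.3 in the shAhR-2 libraries. A gained region with the same fold at the background of the pLKO libraries would have reached all 3 pLKO lists in 2092 of 2092 cases. Gained regions had already passed the higher −log10 p of the shAhR-2 lists, so this count was close to fixed in advance. The fold was also held without sampling variation, and the part of depth in the gained set was not tested. A lost region with the same fold at the background of the shAhR-2 libraries would have reached all 3 shortened shAhR-2 lists in 257 of 1447 cases (17.8%) and all 3 full lists in 1447 cases. A peak missing from a shortened shAhR-2 list therefore does not show a lower fold at most lost regions. The 150 regions missing from the full lists do not share this limit.

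Gained regions mostly lay in the lower part of the shortened shAhR-2 lists. Ranks run from 1 for the strongest peak of a list. The median of their best rank was 22547, and 16 of 2092 reached the first 10000 peaks in at least 1 library. None of the 2092 gained regions was among the first 5000 peaks in any shAhR-2 library. Lost regions had a median best rank of 19927 in the pLKO lists, also in the lower part. Of 1447 lost regions, 6 were among the first 5000 in at least 1 library and 3 among the first 1000 in all 3. Those 3 included chr17:22023394-22023812 and chr5:134262604-134263005, described below, where the part of mitochondrial reads was not tested. The lowest fold over local background among the 3 libraries had a median of 6.37 in gained and 4.38 in lost regions. The −log10 p needed to enter a list differed between the groups, as given above, so these medians are not comparable as such. These folds are the authors' own value per peak.

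Both sets were narrower than the regions open in every library. The median region width was 836 bp for gained, 622 bp for lost, 733.5 bp for the comparison set and 1182 bp for regions with a peak in all 6 lists. Within gained regions the shAhR-2 peaks had median widths of 637, 660 and 715 bp. Within lost regions the pLKO peaks had median widths of 354, 395 and 556 bp. Widths of shAhR-2 and pLKO peaks differ throughout the genome, as described below, so the widths of the sets are not comparable as such.

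The gained regions named here are the 10 with the highest lowest fold among those without any pLKO peak. The region chr14:83108461-83109228 led them, with folds of 13.4, 11.7 and 12.4 in shAhR-2 replicates 1, 2 and 3. Its summit pileups were 81, 72 and 90 reads and its ranks 8358, 10757 and 7220. Its peaks were 379, 406 and 741 bp wide in a region of 768 bp, and it was no longer called when presence required a peak over 50% of the region. It had no peak in any Kelly list used here and a peak in 1 of 3 full lists of BE2C with the first hairpin. The region chr3:84536160-84536943 had folds of 11.7, 12.9 and 10.7, and chr2:188722248-188723232 had folds of 10.9, 11.9 and 11.2. A second region lay about 1 Mb away on the same chromosome at chr2:187612842-187613661, with folds of 10.8, 12.2 and 10.4. The folds of the 3 replicates lay close together at each of these regions. The choice by lowest fold favours such likeness.

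The other 6 named gained regions had folds between 10.1 and 13.2 in every shAhR-2 library. They were chr1:521486-522123, chrX:118698836-118699596, chr16:78036456-78037390, chr4:108104151-108104820, chr1:182931660-182932265 and chr4:30381785-30382444. In Kelly, the other line of the study, chrX:118698836-118699596 had a peak in 3 of 3 shAhR-2 lists and in 0 of 3 pLKO lists of equal length. At chr1:182931660-182932265 the Kelly counts were 3 of 3 with shAhR-2 and 1 of 3 with pLKO, and at chr16:78036456-78037390 they were 3 of 3 and 2 of 3. Background at the 10 regions was at most 1.79 times the genome-wide level, close to that of the genome at large.

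Of the 10 named lost regions, chosen by the same order among the 150 without any shAhR-2 peak, the first stood far above the rest. It was chr17:22023394-22023812, with folds of 22, 21.3 and 18 in pLKO replicates 1, 2 and 3 and ranks of 42, 40 and 39. Its pileups were 395, 454 and 487 reads, on a local background between 11.2 and 14.1 times the genome-wide level. It had no peak in any Kelly list used here, full or shortened. Of the 3 full lists of BE2C with the first hairpin, 2 had a peak there. Mitochondrial signal was lower in the shAhR-2 libraries, as given above, and its part in this peak was not tested. The second, chr1:155953149-155953931, had folds of 9.58, 9.47 and 10.1. In Kelly it had a peak in 2 of 3 pLKO lists and in 0 of 3 shAhR-2 lists. The third, chr2:158851441-158852117, had folds of 7.96, 8.02 and 11.2 and no Kelly peak.

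The fourth, chr5:134262604-134263005, had folds of 9.82, 8.67 and 7.37, pileups of 1155, 1206 and 1332 reads and ranks of 19, 24 and 28. Its local background was between 77.2 and 96.9 times the genome-wide level. It had a peak in 3 of 3 Kelly pLKO lists, in 0 of 3 Kelly shAhR-2 lists and in 3 of 3 full BE2C lists of the first hairpin. It was the one named lost region that all Kelly pLKO lists held and no Kelly shAhR-2 list did. The mitochondrial ratio followed that pattern across groups: 16685 ± 766 in BE2C pLKO, 16026 ± 2895 with the first hairpin and 5514 ± 577 with the second, and 21303 ± 6236 in Kelly pLKO against 7314 ± 1415 with the second hairpin (SD, n = 3 each). The nuclear genome carries near-identical copies of mitochondrial DNA, and whether reads from mitochondria enter this peak was not tested.

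The remaining 6 named lost regions had folds between 6.37 and 10.5 in the pLKO libraries. They were chr2:100630362-100630791, chr7:21003378-21004412, chr2:217548535-217549526, chr10:122656655-122657261, chr14:68102905-68103589 and chr10:52353672-52354146. None of these 6 had a peak in the Kelly lists of equal length. The regions chr2:100630362-100630791, chr7:21003378-21004412, chr2:217548535-217549526 and chr14:68102905-68103589 were no longer called when presence required a peak over 50% of the region. Their pileups ran from 15 to 66 reads.

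A strongly raised background, at least 20 times the genome-wide level in all 3 libraries, was found at 5 gained and 6 lost regions. Of these, 3 gained and 2 lost regions lay in an interval of chromosome 2 described below. The other gained ones were chr4:49114408-49114808 and chr17:22249411-22250126. The other lost ones included chr1:565623-565863, where the pLKO pileups were 4547, 5179 and 5787 reads and the background at least 1346 times the genome-wide level. That region had a peak in 3 of 3 full BE2C lists of the first hairpin. At this region too the part of mitochondrial reads was not tested.

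Gained and lost regions were spread over the genome. The median distance to the next region of the same set was 334 kb for gained and 369 kb for lost, and 2.44% of gained and 6.50% of lost regions had such a neighbour within 10 kb. Of 2820 windows of 1 Mb with any region, 1330 held a gained and 951 a lost one. The window with most gained regions, chr2:30000001-31000000, held 8 of them among 28 regions, and 2 lost ones. The windows chr5:168000001-169000000 and chr16:85000001-86000000 each held 8 lost regions and 0 gained ones.

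Because the Kelly libraries played no part in choosing the BE2C regions, they gave a separate measurement with the same hairpin. Kelly is another established neuroblastoma line, and its lists were shortened to 19984 peaks. BE2C gained regions held a peak in 20.8%, 26.1% and 20.7% of cases in the Kelly shAhR-2 libraries and in 11.8%, 7.89% and 11.6% in the Kelly pLKO libraries. The groups did not overlap, and the means were 22.6% ± 3.1 and 10.4% ± 2.18 (SD, n = 3 each, exact permutation test, p = 0.1, the smallest possible). BE2C lost regions held a peak in 3.04%, 2.49% and 3.04% of cases with shAhR-2 and in 10.6%, 10.2% and 10.6% with pLKO. Again the groups did not overlap, with means of 2.86% ± 0.319 and 10.5% ± 0.239 (SD, n = 3 each, exact permutation test, p = 0.1).

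In the comparison set of BE2C regions the groups lay closer, at 11.1% ± 0.590 against 10.4% ± 0.587 (SD, n = 3 each, exact permutation test, p = 0.2). Regions with a peak in all 6 BE2C lists were found at 68.5% ± 1.24 and 68.2% ± 3.73 (SD, n = 3 each, exact permutation test, p = 1). Counted by region, 572 gained regions had a peak in more Kelly shAhR-2 than pLKO lists and 120 in fewer, which is 82.7% of the unequal ones. For lost regions the counts were 35 and 233, or 13.1%, and over all regions the share was 54.4%. A peak in all 3 Kelly shAhR-2 lists and no Kelly pLKO list was found at 91 gained regions (4.35%) and 7 lost regions (0.484%), against 2.12% of all regions. The reverse was found at 11 gained regions (0.526%) and 43 lost regions (2.97%), against 1.88% of all regions.

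Depth and mitochondrial content differed between the Kelly groups in the same direction as in BE2C, with a background of 2.78 ± 0.196 reads under shAhR-2 against 1.65 ± 0.347 under pLKO (SD, n = 3 each), and their part was not tested. In the full Kelly lists, which were longer with shAhR-2, the difference for lost regions turned to 10.1 percentage points higher with shAhR-2 (exact permutation test, p = 0.2, n = 3 each). There it was 45.8 points for gained regions, 36.3 for the comparison set and 22.5 for all regions. Without Kelly pLKO replicate 2, whose list set the length, the differences were 19.5 points for gained and −14.5 for lost regions.

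**Figure D1:**
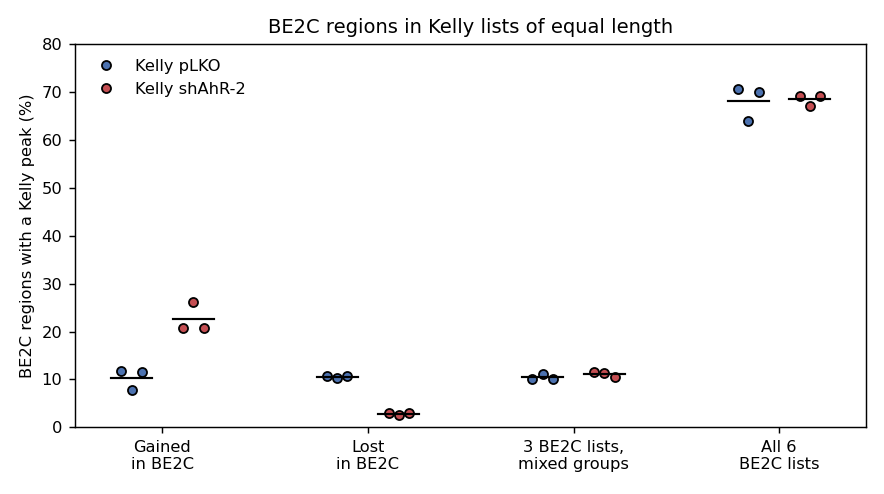
Share of BE2C regions (vertical axis, percent) that hold a peak in each Kelly library at equal list length, for the 4 sets of BE2C regions; points are libraries and lines are means of 3. Gained regions are found more often with shAhR-2 (22.6% against 10.4%), lost regions less often (2.86% against 10.5%), and the other sets lie at like heights in both groups.

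The full lists of BE2C with the first hairpin, which was not matched in length here, are given side by side. They held 45023, 27140 and 25660 peaks. A peak was present in 57.5%, 18.2% and 11.7% of the gained regions, in 68.5%, 30.8% and 23.1% of the lost regions, and in 72.7%, 50.2% and 45.1% of all regions. In each of these libraries the gained regions were covered less often than the lost ones. Background was 1.60 ± 0.172 reads in these libraries (SD, n = 3). It was 1.62 ± 0.204 in BE2C pLKO and 3.79 ± 0.556 in BE2C shAhR-2 (SD, n = 3 each). The part of depth in these shares was not tested.

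Distance was measured to sites that every Kelly library had open, which leaves out sites open with 1 vector only. The nearest of the 12352 regions with a peak in all 6 Kelly lists was a median of 79.5 kb away from gained regions, 56.8 kb from lost regions and 65.3 kb from the comparison set. For regions with a peak in all 6 BE2C lists the median was 0.245 kb. Within 5 kb of such a site lay 4.59% of gained and 5.67% of lost regions, against 53.6% of those in all 6 lists. In the comparison set the share was 3.68%. By presence in any Kelly list of equal length, 797 of 2092 gained regions (38.1%) and 285 of 1447 lost regions (19.7%) were seen in Kelly, and the full Kelly shAhR-2 lists held a peak at 66.4% ± 2.53 of gained regions and 66.8% ± 2.83 of all regions (SD, n = 3).

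At equal list length the peaks of the shAhR-2 libraries were wider. Median widths were 468, 518 and 679 bp in pLKO replicates 1, 2 and 3 and 881, 905 and 950 bp in shAhR-2, with no overlap between groups. The means were 912 ± 35.0 and 555 ± 110 bp, a ratio of 1.66 (SD, n = 3 each, exact permutation test, p = 0.1, the smallest possible). In the full lists the medians were 468, 491 and 571 bp with pLKO and 549, 571 and 575 bp with shAhR-2, so the groups overlapped and the log2 difference was 0.15 in place of 0.73 (exact permutation test, p = 0.3, n = 3 each). At equal length, peaks of at least 1 kb made up 10.6%, 12.2% and 20.8% of the pLKO lists and 38.3%, 40.4% and 44.9% of the shAhR-2 lists. The covered length was 18.9, 20.3 and 25.3 Mb with pLKO and 32.1, 33.0 and 34.4 Mb with shAhR-2, a ratio of 1.55 (exact permutation test, p = 0.1, n = 3 each).

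**Figure D2:**
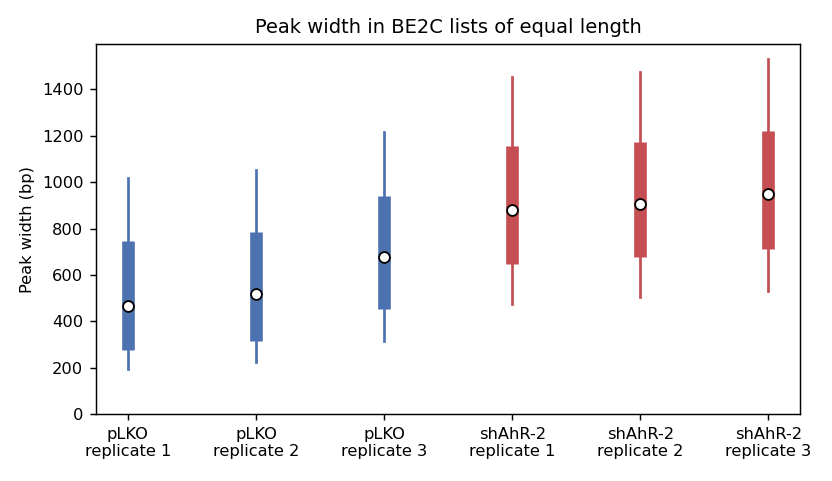
Peak width in bp (vertical axis) in the 34343 strongest peaks of each BE2C library; circles are medians, thick bars the middle 50% of peaks and thin lines the 10th to 90th percentile. The shAhR-2 medians (881 to 950 bp) lie above the pLKO medians (468 to 679 bp).

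The 21954 regions open in all 6 lists allowed width to be read at the same place in every library. There the peaks were 1.43 times as wide with shAhR-2 at the median, and at 16258 regions (74.1%) every shAhR-2 peak was wider than every pLKO peak. In limma with Benjamini-Hochberg adjustment 11421 regions (52.0%) passed an adjusted p of 0.05, 11409 of them wider and 12 narrower.

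After each library was centred on its median width, 363 regions (1.65%) passed, 264 wider and 99 narrower. The count also hung on single libraries: limma called 0 regions without shAhR-2 replicate 3 (10105 at an unadjusted p under 0.05), 947 without replicate 2, 2186 without replicate 1 and 6875 without pLKO replicate 2. Background and width were both higher in the shAhR-2 group. Among the pLKO libraries, replicate 3 had the highest background (1.86 reads) and the widest peaks. Replicate 2 had a lower background than replicate 1 (1.495 against 1.511 reads) but wider peaks at the shared regions (median 688 against 650 bp). The part of background in the widths was not tested.

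Among named regions, chr11:113144039-113145872 widened most, from 193, 221 and 229 bp to 1612, 1514 and 1834 bp (limma, log2 difference 2.95, SE 0.16, adjusted p = 0.00327). Also widened were chr2:90448387-90451612, chr11:57281529-57283472, chr2:224402566-224404484 and chr11:85520940-85522686, with log2 differences between 2.45 and 2.64. Of the 12 narrower regions, chr12:57632321-57635112 went from 1268, 1706 and 1534 bp to 625, 1110 and 786 bp (limma, log2 difference −0.87, SE 0.22, adjusted p = 0.0250). The region chr1:567260-568924 also narrowed, from 1665, 1288 and 1276 bp to 905, 904 and 900 bp. It was among the strongest of the lists, with rank 7 in every pLKO library and ranks of 22, 21 and 24 with shAhR-2, and it lies close to the lost region with the highest background. As at that lost region, the part of mitochondrial reads was not tested. The other named narrower regions were chr8:26428649-26430310, chr1:41128713-41129911 and chr11:71948460-71951090.

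Shared regions also changed places within the lists. Each rank was turned into a normal score, whose unit is the standard deviation over the list, and the scores were tested with limma. Of 21954 regions 7766 (35.4%) passed an adjusted p of 0.05, 3810 ranking higher (17.4%) and 3956 lower (18.0%) with shAhR-2. Ranking by fold in place of −log10 p gave 2558 higher and 4434 lower, so the even split between directions depends on the ranking. Equal list length fixes the average rank, and a region can only rise if others fall. Ranks did not overlap between the groups at 10280 regions (46.8%). The higher regions had a median rank of 6140 with shAhR-2 and 12731 with pLKO, and the lower regions of 14000 and 6641.

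The largest rise was at chr2:16217013-16218964, from ranks of 19065, 21809 and 19446 to 245, 460 and 284 (limma, score difference 2.57, SE 0.12, adjusted p = 9.66e-12). Its fold went from 1.5, 1.55 and 1.73 to 3.20, 2.96 and 2.74 and its peak width from 392, 320 and 363 bp to 1673, 1945 and 1728 bp. In Kelly the same region ranked higher by 0.49 (limma, adjusted p = 0.0220). It lies in the interval of raised background described below. The next, chr2:193278427-193279534, had folds of 3.58, 6.20 and 4.48 with pLKO and 9.04, 10.5 and 7.95 with shAhR-2 (limma, score difference 2.27, SE 0.39, adjusted p = 0.000151). At chr3:110586579-110588101 the folds were 3.19, 5.21 and 5.11 with pLKO and 9.99, 9.22 and 8.14 with shAhR-2 (score difference 2.21). The other 2 were chr12:128575663-128577296 and chr7:85139044-85140521, with score differences of 2.1 and 1.99. The call at the former was lost without shAhR-2 replicate 1, and ranking by fold lowered its difference to 0.76.

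The largest fall was at chr2:68107208-68107983, from ranks of 9880, 10317 and 9823.5 to 33034, 32449 and 33805.5 (limma, score difference −2.39, SE 0.31, adjusted p = 8.38e-06). Its folds were 9.95, 10.2 and 11.2 with pLKO and 6.83, 6.60 and 5.90 with shAhR-2. At chr20:31062620-31063962 the folds were 7.53, 7.10 and 8.45 and then 4.51, 4.22 and 3.66 (score difference −2.36). At chr2:208174712-208176572 they were 9.39, 11.8 and 11.3 and then 6.38, 4.73 and 4.83 (score difference −2.23). At chr12:56139092-56140115 they were 8.53, 10.0 and 6.63 and then 3.49, 3.31 and 3.28 (limma, score difference −2.22, SE 0.18, adjusted p = 3.64e-08). The last named was chr6:27858150-27858947, with a score difference of −2.04, which did not pass without pLKO replicate 2 (−1.88). At all 5 regions the folds of the groups did not overlap, which the choice by the largest falls in rank favours.

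**Figure D3:**
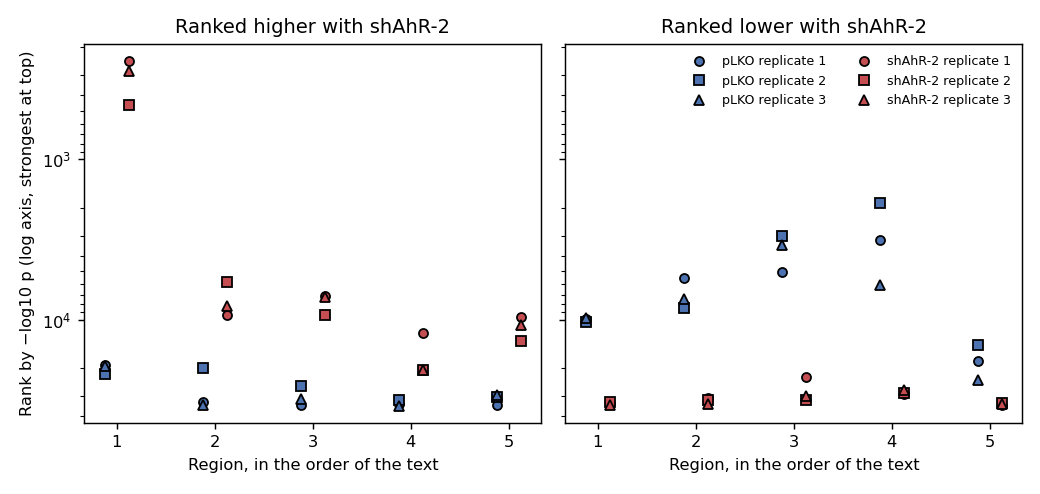
Rank by −log10 p (vertical axis, logarithmic, strongest at the top) of the 5 regions that ranked higher (left) and the 5 that ranked lower (right) by the largest score differences, in the order of the text; each marker is 1 library. The first region on the left moves from ranks near 19065 to 21809 with pLKO to 245 to 460 with shAhR-2, and at every region the groups are apart. The choice by the largest differences favours such separation.

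Changes in rank were set beside those in Kelly, whose libraries were not used for the BE2C calls. Of the regions that ranked higher in BE2C, 2290 had a peak in all 6 Kelly lists, and 76.9% of them had a score difference above 0 there. Of those that ranked lower, 2392 could be read in Kelly and 22.9% were above 0. Among regions not called in BE2C the share was 52.8%. In Kelly's own limma fit 1271 of 12352 regions passed (10.3%). Of the BE2C higher regions 339 were called higher and 37 lower in Kelly, and of the BE2C lower regions 13 were called higher and 270 lower.

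Around the short-arm interval of chromosome 2 the local background was far above the rest of the genome in all 6 libraries. Peaks with at least 20 times the genome-wide background ran from one end to the other of chr2:16079751-16601949 in every library. The median ratio there was 115, 97.7 and 85.9 with pLKO and 66.9, 69.8 and 72.3 with shAhR-2, lower in every shAhR-2 library. Of 94 regions in the interval 3 were gained, 2 lost and 41 had a peak in all 6 lists. Among those 41, 18 ranked higher and 3 lower with shAhR-2, with a median score difference of 0.22 over the interval, against 0.00 over all shared regions. Copy number raises both pileup and background, and whether the number of copies differed between the groups was not tested. Whether MYCN lies inside the interval was not analysed here.

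The distribution of peaks over the chromosomes differed. At equal list length, 16 of 23 chromosomes (69.6%) passed limma on log2 peak counts, 10 with more and 6 with fewer peaks under shAhR-2. Chromosome 22 changed most, from 490, 519 and 514 peaks to 378, 389 and 362 (ratio 0.741, limma, adjusted p = 7.07e-07). Chromosome 19 followed with 1284, 1343 and 1299 against 1138, 1167 and 1098 peaks (ratio 0.867, adjusted p = 6.00e-05 in limma), and chromosome 16 with 1212, 1215 and 1213 against 1084, 1084 and 1046 (ratio 0.883). Chromosomes 1, 17 and 21 also fell, with ratios of 0.936, 0.935 and 0.926. The X chromosome rose most, from 964, 988 and 1011 peaks to 1060, 1077 and 1101 (ratio 1.09, limma, adjusted p = 0.000789).

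In Kelly 1 of 23 chromosomes passed (4.35%), chromosome 22, which fell there as well (limma, log2 difference −0.33, adjusted p = 0.0119). Chromosome 19 had a Kelly difference of 0.05 that did not pass (limma, adjusted p = 0.552). The difference between the lines was not tested. Per region, the share gained in BE2C was 0.295% on chromosome 22, 1.12% on 19 and 2.11% on 16, the lowest of all chromosomes. The share lost was 4.71%, 4.16% and 3.91% on the same chromosomes, the highest of all. Genes were counted over whole chromosomes and divided by the regions of these same lists, so the ratio is not gene density along the DNA. Chromosome 19 has the most RefSeq protein-coding genes per region (0.902), followed by 17 (0.680), 22 (0.664), X (0.599) and 16 (0.530). Of these 5 only X had more peaks with shAhR-2. Next in order, chromosomes 11 (0.479), 15 (0.431) and 14 (0.428) did not pass in BE2C, while 1 (0.421) and 21 (0.420) fell. Ranks of shared regions moved likewise, with 116 of 280 lower and 5 higher on chromosome 22 and 362 of 898 lower and 73 higher on chromosome 19.

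**Figure D4:**
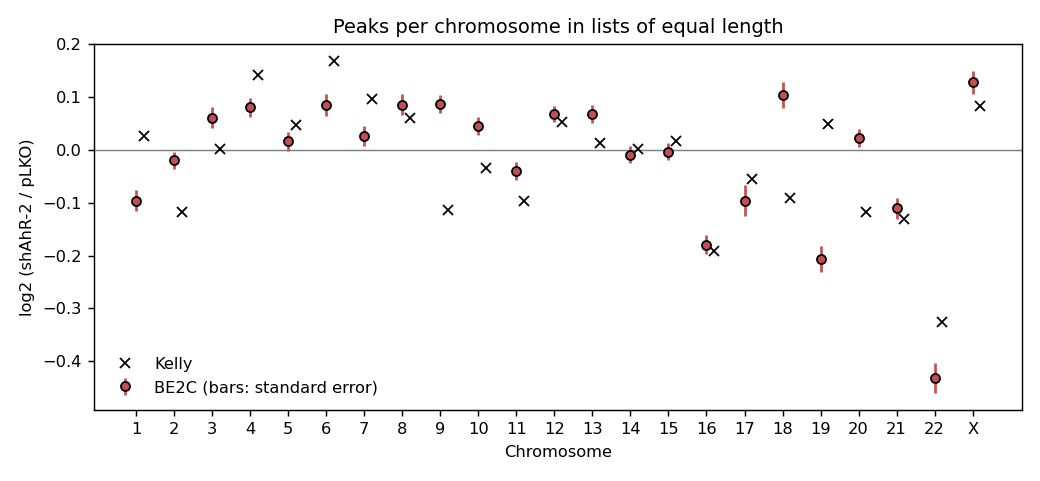
log2 ratio of peak counts, shAhR-2 over pLKO, for each chromosome (horizontal axis) in BE2C (circles, bars are the standard error from limma) and Kelly (crosses) at equal list length. Chromosome 22 lies lowest in both lines (−0.43 and −0.33), while chromosome 19 lies at −0.21 in BE2C and 0.05 in Kelly.

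On a finer scale, 214 of 559 windows of 5 Mb (38.3%) passed limma, 135 with more peaks and 79 with fewer. The count was 124 without shAhR-2 replicate 1 and 110 without replicate 3. The largest rise was at chr17:50000001-55000000, from 29, 32 and 26 peaks to 48, 47 and 50 (ratio 1.66, limma, adjusted p = 8.37e-06). It rose in Kelly too (limma, log2 difference 0.43, adjusted p = 0.0163). The windows chr9:20000001-25000000, chr17:10000001-15000000, chr4:90000001-95000000 and chr4:135000001-140000000 followed, with ratios between 1.54 and 1.66. The window that starts at 50000001 on chromosome 22 fell from 25, 31 and 30 peaks to 18, 15 and 13 (ratio 0.541). The neighbouring chr22:45000001-50000000 fell from 53, 51 and 48 to 32, 33 and 28 (ratio 0.615), and fell in Kelly by 0.83 on the log2 scale (limma, adjusted p = 0.0144).

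The window chr16:85000001-90000000, which holds one of the 1 Mb windows with most lost regions, went from 137, 146 and 147 peaks to 95, 84 and 74 (ratio 0.587, limma, adjusted p = 1.16e-06). Its Kelly counts were 55, 58 and 64 against 34, 20 and 31. On chromosome 1 the named windows with fewer peaks were 80000001 to 85000000 (ratio 0.634) and 10000001 to 15000000 (ratio 0.638). Of the BE2C windows with more peaks, 104 could be read in Kelly and 83.7% were above 0. Of those with fewer peaks, 73 could be read and 8.22% were above 0, against 59.5% of windows not called. Depth and the strength needed to enter a list differ between the groups in both lines, and their part in these shifts was not tested.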

How the data were processed

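Peak lists from 6 BE2C ATAC-seq libraries were analysed, with 6 Kelly and 3 further BE2C libraries for comparison. The build hg19 and the tools MACS2 2.1.0, BWA 0.7.17, deepTools 3.1.3, Trimmomatic 0.33 and CASAVA 1.8.2 are listed per the submitters' processing notes. Their settings, duplicate removal and any shift of read ends are not given in the sources used. The authors deposited, per library, a score, a fold (linear ratio over local background), a −log10 p-value and a −log10 q-value for each peak. The score and q-values deposited by the authors served only for checks and alternatives. No read counts were used, so depth entered only through the background solved from fold and p (pileup and background each plus 1, Poisson tail). Solved pileups were whole numbers within 0.05 for at least 99.98% of peaks.

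Lists were shortened by −log10 p, and peaks overlapping by at least 1 bp were merged. Shared regions, windows of 5 Mb with a mean of at least 20 peaks (log2 of the count plus 0.5) and chromosomes were tested with limma 3.58.1 in R 4.3.3. The fits of shared regions and windows used an intensity trend, and those of chromosomes did not. Values per library were compared with exact permutation tests. The functions were tested on simulated data. The named gained and lost regions are the first 10 without a peak in the full lists of the other group, ordered by their lowest fold, and the named shared regions are the 5 largest differences each way. Groups came from the titles. The regions, sets and lists were chosen with earlier results of these data known, and the window and chromosome fits were added after the data were seen. Gene lists, promoter shares and motifs need an hg19 annotation or sequence and were not analysed here.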

Additional observations from a re-analysis of the deposited data

Results flagged for a closer look

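Peaks on chromosome 9 made up 4.48% of the shAhR-2 and 4.21% of the pLKO lists in BE2C, a difference of 0.264 percentage points, and 3.6% and 3.9% in Kelly, a difference of −0.297 points. Peaks on chromosome 10 made up 4.75% and 4.61% in BE2C, a difference of 0.148 points, and 4.49% and 4.60% in Kelly, a difference of −0.108 points. Chromosomes were flagged when every shAhR-2 library lay to the same side of the pLKO libraries in BE2C and to the opposite side in Kelly. Only chromosomes 9 and 10 of 23 met this rule, so the separation of their libraries was fixed by the choice. At both, the shAhR-2 libraries lay above in BE2C and below in Kelly. The difference between the lines was not tested.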

How the results depend on the processing

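Gained and lost regions numbered 2092 and 1447, and their counts were 15182 and 181 in full lists, 13741 and 136 in full lists at a −log10 q of at least 5, and 6306 and 805 with a peak required to cover 50% of the region. Lists of 20000 peaks gave 1135 gained regions, ranking by fold gave 2313 lost regions, and 150 lost regions had no peak in a full list of the other group. Leaving out 1 library and matching length again gave 2621 to 3273 gained and 1681 to 2258 lost regions. Of the 2092 gained regions 129, and of the 1447 lost regions 173, were called again in lists of 20000 peaks. Calls on relative strength fell from 7766 to 5072 in lists of 20000 peaks and lay between 6144 and 7712 without 1 library. Width calls fell from 11421 to 363 after centring and lay between 0 and 15669 without 1 library. Window calls lay between 110 and 225 and chromosome calls between 13 and 17 without 1 library. Log2 ratios without 1 library lay between 0.96 and 1.14 for peak number, 0.65 and 0.89 for median width, and 0.57 and 0.76 for covered length. In full lists the log2 ratio of median width was 0.15 (exact permutation test, p = 0.3, n = 3 each). The Kelly differences lay between 10.4 and 19.5 points for gained and between −14.5 and −7.46 for lost regions, and in full lists they were 45.8 and 10.1. The cause of these shifts was not tested. With the replicate number as a block, limma called 7841 regions by strength, 10019 by width, 188 windows and 17 chromosomes, and the values per library had p = 0.25 in an exact paired permutation test, the smallest possible. Same-numbered libraries did not deviate together (correlations between −0.03 and 0.03), so the numbers do not pair the libraries. Among single named regions, 3 of the values recomputed for strength lost significance and 82 kept it. For width 22 lost it and 68 kept it. Of the named gained and lost regions, 1 gained and 4 lost were no longer called when a peak had to span 50% of the region. None of the recomputed values reversed. A shared region was recomputed only where every list of the setting had a peak there. No named strength region could be read in lists of 20000 peaks. The largest rise, chr2:16217013-16218964, and most of the named falls could not be read when ranking by fold. Promoter and intergenic shares and the distance of 2 kb were not run. Depth sets a limit on the lost set: 257 of 1447 lost regions would enter all 3 shortened shAhR-2 lists at an unchanged fold.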
